A study of Homo sapiens with 4 samples.

Results

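The zinc finger (ZNF) genes of chromosome 19 were taken as all protein-coding genes on that chromosome whose symbol begins with ZNF followed by a number. There were 250 such genes among 20052 protein-coding genes of the RefSeq table. The assay was ATAC-seq, which uses a DNA-cutting transposase to mark open chromatin, and the deposited values were read counts in 73135 genomic intervals (merged peaks). An interval was assigned to the gene whose body held its midpoint, or otherwise to the protein-coding gene with the nearest end within 100 kb. In this way 704 intervals were assigned to 166 of the 250 ZNF genes, and 84 ZNF genes received none. The rule used names and positions only, and all 704 intervals passed the filter on low counts.

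TMD8 is an established cell line of diffuse large B-cell lymphoma of the activated B-cell (ABC) type. It was treated with a short hairpin RNA (shRNA) against IRF4, a B-cell and plasma-cell transcription factor, or with a scrambled shRNA. There were 2 shIRF4 libraries and 2 control libraries, all of the same line, with no time point in the labels. The library names say siIRF4 where the titles and design text say shIRF4. Nothing in the labels says that the libraries of a group came from separate cultures, so p-values measure only the spread between these libraries. IRF4 RNA and protein were not measured in these files, and accessibility does not check the knockdown.

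Most ZNF genes of chromosome 19 encode DNA-binding proteins with arrays of C2H2 zinc fingers, and many also carry a KRAB domain, which recruits TRIM28 (KAP1) and through it the histone methyltransferase SETDB1. Their best known task is to bind and silence transposable elements. The genes stand in clusters that grew by tandem duplication. Their bodies and far ends, which hold the finger-coding exons, are known to carry the repressive mark H3K9me3 while their promoters are often open. ZNF274, itself a member, binds the far ends of other ZNF genes and recruits SETDB1 there.

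The libraries held 17954924 and 9112860 counts in shIRF4 and 12152153 and 13609123 counts in control. The shIRF4 libraries were less alike than the control libraries over all intervals (Pearson r of log2 CPM across intervals 0.978 in shIRF4 and 0.984 in control; intervals are not independent replicates). For this reason the main results are also given without shIRF4 replicate 1, the deepest library. The B-cell marker genes CD79A, PAX5, BLNK and CD22 had a promoter interval, with summed levels of 271 and 252 CPM (scaled counts relative to the library total) in shIRF4 and 259 and 249 CPM in control. CD79B and MS4A1 had none. No promoter interval was found at 5 T-cell or 5 epithelial and fibroblast markers. Of 5 myeloid markers, CD14 and CD33 had one, and their sum lay between 23.3 and 29.5 CPM.

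The promoters on which the results turn are shown in full. Each is the RefSeq window of 300 bases (250 before the gene start and 50 from it on) in build GRCh38.p14, given 5′ to 3′ on the strand of the gene, with CG dinucleotides in capitals. The first was the largest promoter rise (ZNF226, plus strand, chr19:44164850-44165149) and the second the only promoter rise in the distal clusters described further on (ZNF274, plus strand, chr19:58182811-58183110). The third was the largest promoter fall (ZNF350, minus strand, chr19:51986791-51987090) and the last the promoter fall with the smallest p (ZNF586, plus strand, chr19:57769426-57769725).
ZNF226: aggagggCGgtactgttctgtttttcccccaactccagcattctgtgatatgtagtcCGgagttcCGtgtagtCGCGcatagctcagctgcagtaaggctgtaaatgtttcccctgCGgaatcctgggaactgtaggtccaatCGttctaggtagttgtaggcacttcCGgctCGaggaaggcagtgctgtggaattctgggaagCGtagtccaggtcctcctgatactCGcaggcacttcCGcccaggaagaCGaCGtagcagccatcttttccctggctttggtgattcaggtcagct
ZNF274: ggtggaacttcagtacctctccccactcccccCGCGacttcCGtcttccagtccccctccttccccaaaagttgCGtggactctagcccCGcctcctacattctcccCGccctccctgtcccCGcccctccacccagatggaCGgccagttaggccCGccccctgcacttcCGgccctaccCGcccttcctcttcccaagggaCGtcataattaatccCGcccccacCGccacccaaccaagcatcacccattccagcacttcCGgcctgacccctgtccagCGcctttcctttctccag
ZNF350: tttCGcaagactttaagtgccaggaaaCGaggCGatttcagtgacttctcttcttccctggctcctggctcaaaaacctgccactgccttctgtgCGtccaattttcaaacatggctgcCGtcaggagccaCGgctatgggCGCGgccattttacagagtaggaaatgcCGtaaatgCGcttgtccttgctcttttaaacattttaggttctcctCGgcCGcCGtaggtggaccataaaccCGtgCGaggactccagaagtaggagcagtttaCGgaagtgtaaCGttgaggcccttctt
ZNF586: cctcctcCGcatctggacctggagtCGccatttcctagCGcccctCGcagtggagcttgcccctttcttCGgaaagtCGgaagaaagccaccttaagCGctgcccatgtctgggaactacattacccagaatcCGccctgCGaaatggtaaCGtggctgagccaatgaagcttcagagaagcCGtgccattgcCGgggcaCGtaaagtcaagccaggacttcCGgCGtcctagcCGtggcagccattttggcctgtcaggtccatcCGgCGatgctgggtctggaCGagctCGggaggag
The 4 windows held 14, 16, 17 and 20 CG dinucleotides in the order shown. The ZNF350 interval (chr19:51986076-51986884) covered only part of its window, while the other windows lay inside their intervals.

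Over all ZNF genes of chromosome 19, 219 genes had 271 entries in the promoter table. The median window held 20 CG dinucleotides, against 14 over the 35116 windows of the whole table. The median was 25 for windows under an interval that was lower in shIRF4, 18 for those under a higher interval, 22 for those under an interval with no call and 17 for those under no interval. The motifs searched, by letters on both strands and with overlaps between them allowed, were those of IRF and AP-1 type sites. The interferon-response type of element (GAAA, any 2 bases, GAAA) was found in 2 of the 271 windows (0.738%) and in 3.57% of all windows. The composite element of ETS factors and IRF4 (GGAA, any 2 bases, GAAA) was found in 1 window (0.369%) and in 2.82% of all windows. TGANTCA, an AP-1 type site, was found in 18 windows (6.64%) and in 7.71% of all windows, and ZNF226 was the only one of the 4 printed promoters to hold it. The composite of AP-1 and IRF was found in 1 window with the half-sites adjacent (GAAA directly before TGANTCA, 0.369%, against 0.162% of all). With the IRF half-site as TTTC and 4 bases between, it was found in 0 windows (against 0.114% of all). These counts describe letters in the windows and say nothing of binding.

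Accessibility at these genes was lower in shIRF4 cells at many intervals and higher at few. By edgeR's quasi-likelihood test with adjustment over all intervals (threshold 0.05), 290 of the 704 intervals were lower in shIRF4 (41.2%), against 15.5% of all tested intervals. Only 9 were higher (1.28%), against 7.27% of all. The median log2 fold change was -0.34, against 0.01 over all tested intervals, and single intervals lay between -1.07 and 0.79. The falls were shallow: their median was 1.41-fold and only 1 passed 2-fold, an interval of ZNF845. In all, 101 genes held a lower interval, 9 a higher one and 3 both (ZNF444, ZNF814 and ZNF274), and 59 of the 166 genes with an interval had no call.

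The size of this shift rested on 1 library more than on the other. Against the control mean, the median ZNF interval stood at -0.47 (log2) in shIRF4 replicate 1 and -0.16 in shIRF4 replicate 2, while the control libraries stood at 0.02 and -0.03. Replicate 1 was the lower of the shIRF4 libraries at 606 of 704 intervals. Without it, 38 intervals were called lower (5.4%), below the 8.79% of all intervals called lower in that fit, and 12 were called higher (1.7%), against 3.58% of all. The median was -0.15. Without replicate 2, 411 were called lower (58.4%), against 18% of all, and 13 higher (1.85%), against 9.41% of all. By DESeq2, 15 were called lower (2.13%), against 5.07% of all, and 1 higher, against 1.17% of all. All 290 intervals kept a negative fold change in each of the 12 alternative fits of the interval counts. These fits reuse the libraries in which the intervals were called, so the kept direction is not separate support. The shIRF4 libraries differ in depth, and its part in the result was not tested.

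**Figure D1:**
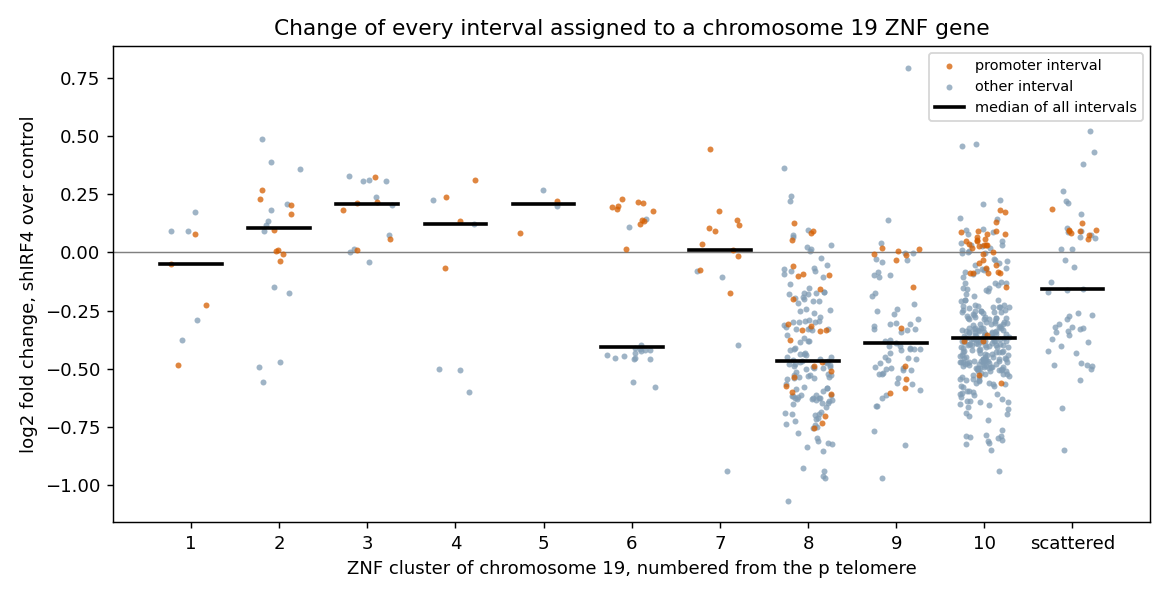
Log2 fold change (shIRF4 over control) of each of the 704 intervals assigned to a chromosome 19 ZNF gene, by cluster numbered from the p telomere. Orange points are promoter intervals, blue points all others, and black lines the medians, which lie at -0.47, -0.39 and -0.37 in clusters 8, 9 and 10; in cluster 6 the promoters sit near or above 0 and most other intervals near -0.4.

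The genes fell into 10 clusters, defined as runs of at least 5 ZNF genes with gaps of at most 500 kb, plus 14 scattered genes. The density of intervals differed greatly between them. Cluster 4 (19.7 to 24.1 Mb) held 37 genes, but only 8 of them had an interval, and all intervals in its span, of any gene, came to 2.24 per Mb. Cluster 3 (11.5 to 12.6 Mb) had intervals at 9 of 25 genes. Cluster 8 (51.6 to 53.6 Mb) had them at 38 of 41 genes, cluster 9 (55.5 to 56.7 Mb) at 13 of 17 and cluster 10 (57.2 to 58.5 Mb) at all 43. Their densities were 127, 205 and 287 intervals per Mb. A gene with no interval was not necessarily closed, since the intervals are peaks the authors had called.

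By number, the falls were found mainly in clusters 8, 9 and 10, the 3 most distal ones on the long arm, which were set apart after their values were seen. Cluster 8 had 81 lower and 0 higher among 166 intervals (median -0.47), cluster 9 had 34 lower and 1 higher among 75 (median -0.39), and cluster 10 had 135 lower and 2 higher among 305 (median -0.37). In these 3 clusters together 250 of 546 intervals were lower and 3 higher. Clusters 2, 3, 4, 5 and 7 had 22, 16, 9, 4 and 15 intervals with medians of 0.11, 0.21, 0.12, 0.21 and 0.01. They held 7 lower and 4 higher intervals between them. Cluster 1 had 3 lower among 9 intervals (median -0.05) and the scattered genes 15 lower among 55 (median -0.16), of which ZNF473 gave 12. Cluster 6 had the highest lower share of any cluster, 53.6%, with 15 lower and 2 higher among 28 intervals (median -0.41). The lower shares of clusters 8, 9 and 10 were 48.8%, 45.3% and 44.3%. Most of the lower intervals of cluster 6 lay in 1 stretch described further on.

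Both shIRF4 libraries lay below both control libraries in the medians of clusters 6, 8, 9 and 10. The medians of shIRF4 replicate 1 and 2 were -0.59 and -0.22 in cluster 8, -0.53 and -0.18 in cluster 9, -0.49 and -0.19 in cluster 10, and -0.53 and -0.16 in cluster 6. The medians of the control libraries stayed between -0.03 and 0.03 in every cluster. Without shIRF4 replicate 1 the medians of clusters 8, 9 and 10 were -0.21, -0.16 and -0.17, against 0.004 over all tested intervals. In each of these clusters the share called lower in that fit was below the share over all intervals.

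**Figure D2:**
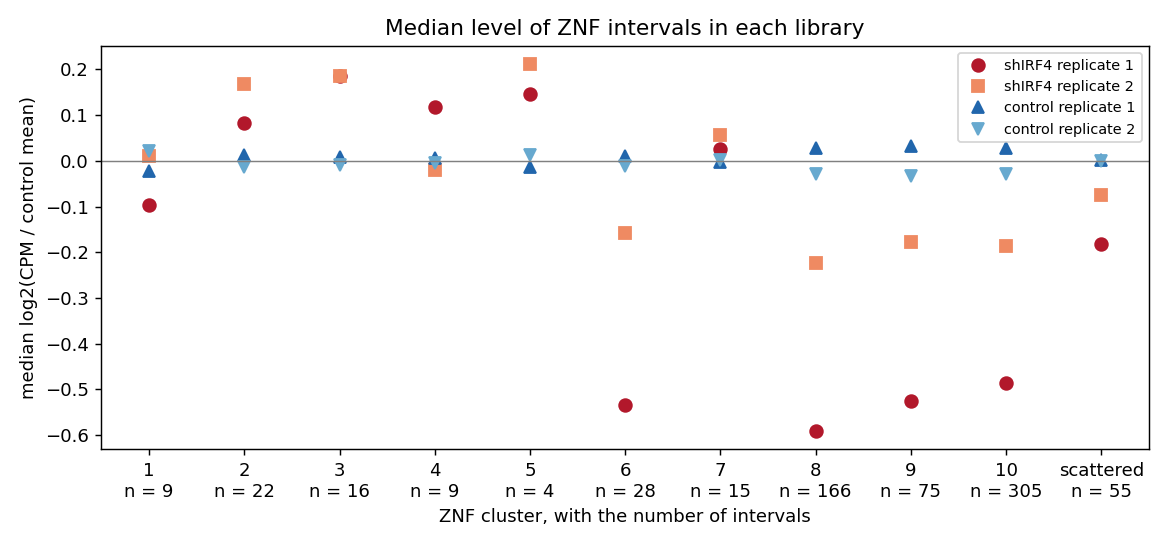
Median log2(CPM / control mean) of the ZNF intervals of each cluster in each library, with the number of intervals under each cluster. In clusters 8, 9 and 10 shIRF4 replicate 1 lies at -0.59, -0.53 and -0.49 and shIRF4 replicate 2 at -0.22, -0.18 and -0.19, below both control libraries.

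Falls were also frequent at genes of other kinds in the same stretch. Distal of the start of cluster 8, intervals assigned to other genes numbered 869, of which 363 were lower (41.8%) and 2 higher, with a median of -0.34. Proximal of that point the other genes of chromosome 19 had 724 lower among 3801 intervals and a median of -0.06. Of the 869 distal intervals, 61 were lower without shIRF4 replicate 1 (7.02%, against 8.79% of all) and 11 higher, with a median of -0.15. By DESeq2 21 were lower (2.42%, against 5.07% of all), with a median of -0.31. Inside the spans of clusters 8, 9 and 10 the other genes' medians were -0.38, -0.32 and -0.39. ZNF genes on other chromosomes had 78 lower (10.4%) and 51 higher among 753 intervals, with a median of 0.05. On counts summed over 1 Mb bins, all 11 bins from 48 Mb to the end of the chromosome had a negative fold change, from -0.37 to -0.08, and 1 of them, at 53 Mb, was called lower by edgeR (19.1% of all bins were). A change of the ZNF genes and one of the whole stretch cannot be told apart in these files.

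Within the distal clusters the median change of promoters lay nearer to 0 than that of the other intervals. Promoter intervals, those overlapping a RefSeq promoter window, numbered 74 there, with 19 lower, 1 higher and a median of -0.09. Far ends, within 1 kb of the end opposite to the promoter, had 28 lower and 0 higher among 47 intervals (median -0.41), against 17.7% lower and 5.83% higher over all far ends of the series. The remaining 378 intervals had 182 lower and 2 higher (median -0.41), against 17.1% and 7.79% over all such intervals. Without shIRF4 replicate 1 the medians of promoters, far ends and the remaining intervals were 0.02, -0.24 and -0.20. In that fit the lower share of far ends was above that of all far ends. The lower share of the remaining intervals was below that of all such intervals. The shares over all promoters in that fit are not given here. Over all genes in the series, 3.81% of promoter intervals were lower and 4.68% higher. Promoters of other genes in the distal stretch had 39 lower and 0 higher among 81, with a median of -0.28. Their lower share, 48.1%, was above the 25.7% of the ZNF promoters, but the sets also differed in level and length. Median control levels were 11.5 CPM per kb in these promoters of other genes and 20.7 CPM per kb in the ZNF promoters. Median lengths were 4655 and 1991.5 bp in the same order. The difference in lower share was not tested.

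Promoters of high and of low level had different medians. The 74 distal promoters were divided at 20.6 CPM per kb, the median of all promoter intervals in the series. The 37 at or above that level had 1 lower and 1 higher interval and a median log2 fold change of 0.03, while the 37 below it had 18 lower, 0 higher and a median of -0.35. Over all promoters of the series divided at the same level, 1.17% were lower and 4.71% higher at or above it, and 6.45% were lower and 4.65% higher below it. With shIRF4 replicate 1 left out, the median was 0.10 for the 37 high promoters and -0.11 for the 37 low ones. The low ones then lost all their calls. Intervals in the distal clusters were mostly of low level: the median of control levels was 9.26, 9.46 and 8.79 CPM per kb in clusters 8, 9 and 10, against 12.9 over all intervals. Level, length and position of an interval go together here, and their separate parts were not tested.

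**Figure D3:**
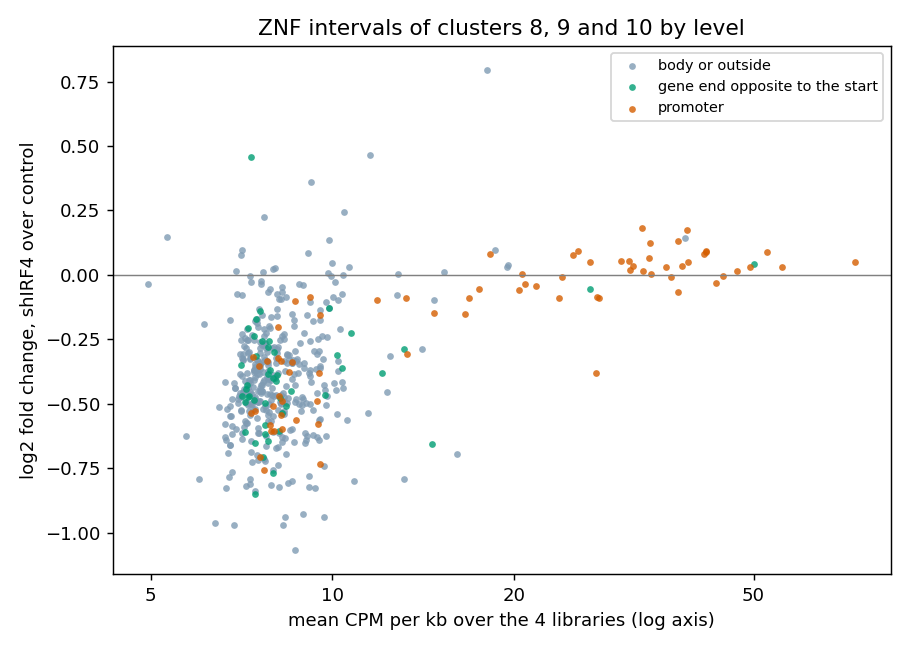
Log2 fold change (shIRF4 over control) of the ZNF intervals of clusters 8, 9 and 10 against their mean level over the 4 libraries in CPM per kb (log axis), coloured by place in the gene. Promoters above about 20 CPM per kb lie near 0, and low promoters lie among the body and far-end intervals around -0.4.

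In clusters 1 to 7 the promoters leaned the other way, as did all promoters of the series by less. Of 47 promoter intervals, 2 were lower (ZNF555 and ZNF556, neighbours in cluster 1) and 5 higher (ZNF226, ZNF430, ZNF181, ZNF527 and ZNF260), with a median of 0.13. The shares were 4.26% lower and 10.6% higher, against 3.81% and 4.68% of all promoters, whose median was 0.04. Without shIRF4 replicate 1 the median of these 47 was 0.18, and the 2 falls lost their calls. The 9 promoters of scattered genes had no call and a median of 0.09. When the libraries were scaled on the other chromosome 19 intervals instead, the median of all intervals of the series moved by 0.13. Of the 704 ZNF intervals 139 were then lower (19.7%), against 10.3% of all, and 32 higher (4.55%), against 13% of all. The 47 promoters had 0 lower and 16 higher under that scaling, so the number of these rises depends on it. The shares over all promoters under that scaling are not given here.

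Single falls were also seen in the proximal clusters, away from promoters. In cluster 1 a body interval of ZNF554 had 15.4 and 15.5 CPM in shIRF4, against 20.1 and 19.9 CPM in control (-0.37, edgeR adjusted p = 0.0079). In cluster 4 an interval outside ZNF728 had 6.03 and 4.80 CPM in shIRF4, against 8.39 and 8.56 CPM in control (-0.60, adjusted p = 0.0083). In cluster 2 an interval outside ZNF558 had 8.58 and 12.4 CPM in shIRF4, against 15.2 and 13.1 CPM in control (-0.49, adjusted p = 0.015). None of the 3 overlapped between the groups, and each call was lost by DESeq2 and with at least 1 library left out. Such non-overlap was also found at 491 of the 704 ZNF intervals and at 59.1% of all tested intervals. ZNF558 held the most called intervals of cluster 2, with 3. ZNF554 was 1 of 3 genes of cluster 1 with a single call each, and ZNF728 was 1 of 4 such genes of cluster 4. In the distal clusters the genes with the most calls were ZNF766 (6 lower of 9 intervals), ZNF71 (7 of 12) and ZNF274 (10 lower and 1 higher of 15).

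The largest falls among intervals of at least median abundance were all in clusters 8, 9 and 10. In the body of ZNF805, an interval at chr19:57243525-57245493 had 11.2 and 15.5 CPM in shIRF4, against 27.6 and 21.9 CPM in control. The groups did not overlap, which the naming rule required of each of these largest falls. The log2 fold change of the ZNF805 interval was -0.94 ± 0.13 (SE; edgeR adjusted p = 1.2e-05). It was the only ZNF interval called in a test against a 1.5-fold change, which called 3.31% of all intervals lower and 0.641% higher. Next to it in rank came an interval outside ZNF324B (-0.82) and one in the body of ZNF331 (-0.82), an imprinted gene. ZNF350, known as ZBRK1, a corepressor that binds BRCA1, had an outside interval at 5.54 and 5.67 CPM in shIRF4 and 9.82 and 9.82 CPM in control (-0.81 ± 0.15, adjusted p = 0.0003). Its promoter, the largest promoter fall (-0.76), had 4.13 and 5.35 CPM in shIRF4, against 8.31 and 7.14 CPM in control. That promoter is of low level, and its call, unlike that of the outside interval, was lost without shIRF4 replicate 1.

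ZNF586 fell at its promoter and its body alike. The body interval at chr19:57774750-57777735 had 26.9 and 31.0 CPM in shIRF4, against 51.4 and 47.6 CPM in control (-0.79 ± 0.08, edgeR adjusted p = 2.7e-07). The promoter interval at chr19:57767750-57772486 had 109 and 117 CPM in shIRF4, against 150 and 143 CPM in control (-0.38 ± 0.06, adjusted p = 3.1e-05). The groups overlapped in neither interval, and both stayed called by DESeq2 and without any 1 library. Among the 21 lower promoters this was the one of highest level. The next in level, ZNF556, had 43.2 and 45.7 CPM in shIRF4, against 50.6 and 52.8 CPM in control.

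Other falls of the same rank were seen at ZNF530 (-0.79), ZNF587B (-0.78), ZNF71 (-0.77), ZNF304 (-0.76) and ZNF577 (-0.72). Without shIRF4 replicate 1, the calls at ZNF331, ZNF530, ZNF71, ZNF304 and ZNF577 were lost, while those at ZNF805, ZNF324B, ZNF350, ZNF586 and ZNF587B were kept. The lower promoters also included ZNF154 and ZNF582, promoters often hypermethylated in carcinomas, named here after their values were seen. The ZNF154 promoter had 10.7 and 14.4 CPM in shIRF4, against 18.4 and 16.6 CPM in control (-0.53, edgeR adjusted p = 0.0035). The ZNF154 and ZNF582 promoters lie among the distal ones of low level, and both calls were lost without shIRF4 replicate 1.

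Far ends with a high total CPM fell too. Their intervals were long, so this is not a high level per kb as used above. At ZNF446, a KRAB and SCAN domain gene, the interval at chr19:58487543-58492604 had 52.0 and 63.9 CPM in shIRF4, against 85.4 and 94.7 CPM in control (-0.66 ± 0.08, edgeR adjusted p = 2.0e-06). At ZNF497 the far end had 97.9 and 115 CPM in shIRF4, against 142 and 133 CPM in control (-0.38, adjusted p = 0.00015). Neither overlapped between the groups, and both stayed called by DESeq2 and without any 1 library. ZNF667 fell at its promoter, with 15.9 and 21.6 CPM in shIRF4 and 27.3 and 26.9 CPM in control (-0.58, adjusted p = 0.00042). That call was lost without shIRF4 replicate 1, where the log2 fold change was -0.32.

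Rises were few and most were small. The largest was in the body of ZNF444, a SCAN domain gene, at chr19:56133794-56135025, with 29.7 and 26.6 CPM in shIRF4 and 16.4 and 16.4 CPM in control (0.79 ± 0.10, edgeR adjusted p = 2.0e-06). It was the only rise also called by DESeq2, and it stood inside cluster 9 beside a fall. The far end of the same gene had 97.4 and 109 CPM in shIRF4, against 127 and 127 CPM in control (-0.31, adjusted p = 0.00054).

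The largest promoter rise was at ZNF226 in cluster 7, with 26.4 and 23.3 CPM in shIRF4, against 17.5 and 19.4 CPM in control (0.45 ± 0.10, edgeR adjusted p = 0.0017). The promoters of ZNF430 (0.24), ZNF181 (0.22), ZNF527 (0.20) and ZNF260 (0.19) rose by less, with adjusted p between 0.026 and 0.047. ZNF846 (0.49) rose outside the gene, and ZNF814 (0.46, adjusted p = 0.049) close to 1 end. Each of these calls was lost by DESeq2 and when at least 1 of the 4 libraries was left out.

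ZNF274 moved in opposite directions at its start and along its body. The promoter interval had 152 and 165 CPM in shIRF4, against 136 and 142 CPM in control (0.18 ± 0.05, edgeR adjusted p = 0.019), and the call was lost by DESeq2 and when either control library was left out. Of its other 14 intervals, 10 were lower, and all 14 had negative fold changes. The strongest of them, in the body at chr19:58210807-58212037, had 7.76 and 9.93 CPM in shIRF4, against 14.4 and 12.3 CPM in control (-0.64 ± 0.14, adjusted p = 0.0015). Summed over all 15 intervals the gene did not pass the test (-0.12, adjusted p = 0.19), with 305 and 351 CPM in shIRF4 and 354 and 356 CPM in control, scaled on the counts assigned to genes.

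**Figure D4:**
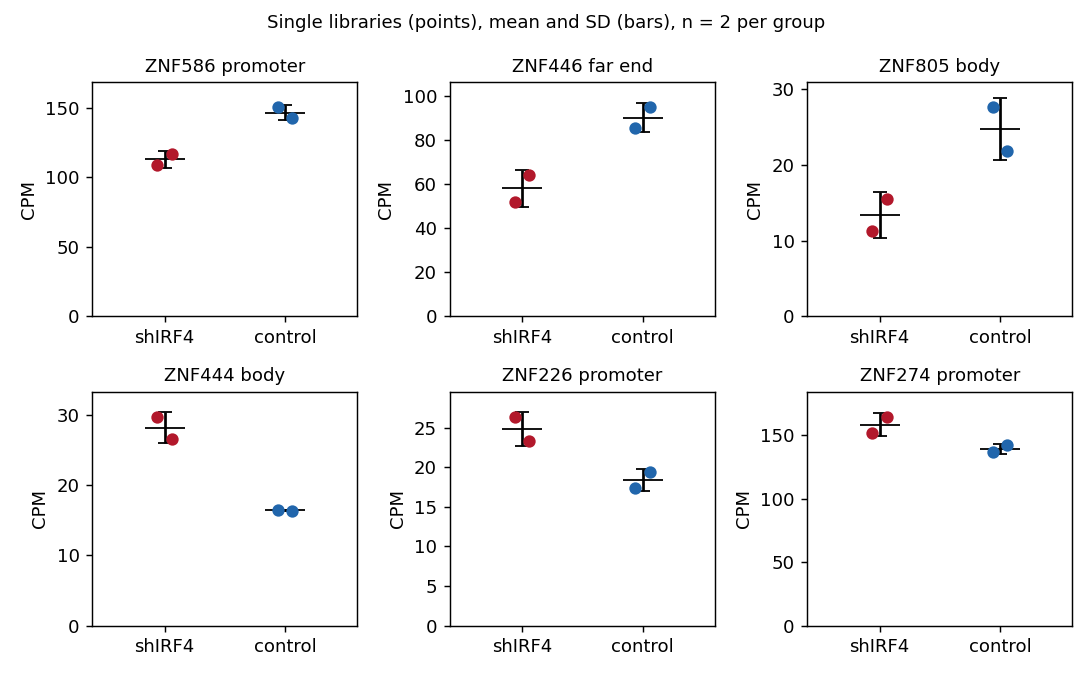
CPM in each library at 6 intervals, shIRF4 left and control right, with mean and SD (n = 2 per group, axes from 0). The ZNF586 promoter, ZNF446 far end and ZNF805 body are lower in both shIRF4 libraries than in both control libraries, and the ZNF444 body, ZNF226 promoter and ZNF274 promoter are higher in both.

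The difference between promoter and rest was tested within each gene, with a contrast added after the data were seen. The change of the summed promoter intervals minus that of all other intervals of the same gene was fitted with limma on log2(CPM + 1) in 89 ZNF genes. It passed the threshold as positive in 13 genes (14.6%) and as negative in 1, against 9.84% positive and 3.3% negative over the 6698 genes tested. The median difference was 0.22 over the 89 ZNF genes, 73 of which were positive, and 0.04 over all genes. The positive genes were ZNF875, ZNF766, ZNF304, ZNF274, ZNF584, ZNF780A, ZNF565, ZNF773, ZNF671, ZNF551, ZNF549, ZNF776 and ZNF530. The negative one, ZNF880, had a low promoter interval at 3.80 and 5.24 CPM in shIRF4 and 7.47 and 6.62 CPM in control.

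In ZNF766 the promoter had 111 and 118 CPM in shIRF4, against 107 and 103 CPM in control, and did not pass the interval test. The rest of the gene had 50.1 and 62.8 CPM in shIRF4, against 79.6 and 75.4 CPM in control. The difference of the changes was 0.59 ± 0.12 (limma adjusted p = 0.016). The same form was seen at ZNF304, whose promoter had 74.3 and 80.8 CPM in shIRF4 and 75.3 and 75.6 CPM in control, while its rest had 38.3 and 46.5 CPM in shIRF4 and 61.3 and 59.1 CPM in control (0.54 ± 0.11, adjusted p = 0.018). With 1 library left out the median difference stayed between 0.20 and 0.26, but the limma calls depended on single libraries. They were fewer without shIRF4 replicate 1, more without shIRF4 replicate 2 and all lost without control replicate 1 or 2. Shares over all genes in these fits are not given here.

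The same kind of contrast set gene ends (within 1 kb of either end) against gene bodies in 78 ZNF genes. There 8 were positive (ZNF274, ZNF766, ZNF417, ZNF614, ZNF773, ZNF480, ZNF419 and ZNF416) and 1, ZNF584, was negative, against 9.99% and 4.44% over all 6037 genes tested. The positive share, 10.3%, was close to that of all genes. ZNF417 silences endogenous retroviruses of the HERV-K group. Its gene ends had 97.2 and 109 CPM in shIRF4, against 97.7 and 92.3 CPM in control, and its body had 21.7 and 27.1 CPM in shIRF4, against 32.2 and 30.6 CPM in control (difference 0.47 ± 0.12, limma adjusted p = 0.032). The gene-end calls depended on single libraries. All were lost without shIRF4 replicate 1 or without control replicate 1. Fewer passed without control replicate 2 and more without shIRF4 replicate 2. ZNF584 was positive for its promoter and negative for its gene ends, since its RefSeq promoter window lies inside the gene as the gene table bounds it and was counted with the body.

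**Figure D5:**
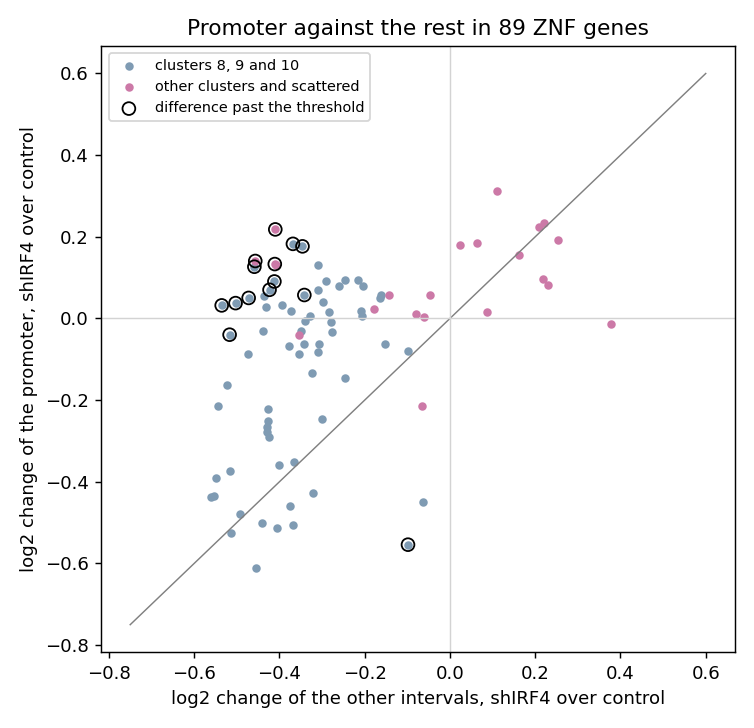
Log2 change (shIRF4 over control) of the summed promoter intervals against that of all other intervals in each of 89 ZNF genes. Genes above the diagonal had the higher change at the promoter, 73 in number; black rings mark the 14 genes whose difference passed the limma threshold.

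Outside the distal clusters, 1 compact stretch in cluster 6 stood out. Between ZNF383 and ZNF875, all 13 intervals outside the gene bodies (chr19:37268672-37303667) were lower, with log2 fold changes from -0.58 to -0.40. Their summed level was 288 and 380 CPM in shIRF4, against 446 and 434 CPM in control. These intervals made up 13 of the 15 lower intervals of cluster 6, whose 11 promoters had no lower call and 2 higher ones (ZNF527 and ZNF260). The summed non-promoter intervals of ZNF565, in the same cluster, had more counts and a similar change. They had 560 and 734 CPM in shIRF4, against 887 and 873 CPM in control (-0.46). The stretch was noticed in the data. Without shIRF4 replicate 1, 2 of the 13 were called lower (median -0.19). By DESeq2 0 of the 13 were called after adjustment and 8 at an unadjusted p under 0.05 (median -0.40).

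Most of the ZNF genes with the highest gene-end interval of their cluster had no call there. ZNF581, in a merged interval of over 30 kb, had 1079 and 1157 CPM in shIRF4, against 1119 and 1130 CPM in control (-0.01, edgeR adjusted p = 0.91). ZNF324 had 522 and 571 CPM in shIRF4, against 585 and 576 CPM in control (-0.09, adjusted p = 0.18). The groups overlapped at ZNF581 and did not at ZNF324. Among ZNF566, ZNF428, ZNF653, ZNF554, ZNF846 and ZNF101, all outside the distal clusters, fold changes lay between -0.07 and 0.12 with no call.

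On counts summed per gene, 63 of the 166 ZNF genes were lower by edgeR and 7 higher, against 13.5% and 6.79% of all genes tested. The lower genes were 28 of 38 in cluster 8, 5 of 13 in cluster 9 and 19 of 43 in cluster 10. ZNF473, with 19 intervals the gene with the most, fell by 0.26 on the log2 scale (adjusted p = 0.038). Without shIRF4 replicate 1 fewer ZNF genes were lower, and by DESeq2 14 were. The shares over all genes in these fits are not given here, so the counts cannot be set against the 13.5% above. Near-identical paralogs share reads, and how the authors' counting placed such reads is only partly known, so values of single duplicated genes are uncertain. 16 of the 704 intervals lay in more than 1 gene body.

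The partners through which KRAB zinc finger proteins silence chromatin were taken from a list of 30 genes, 28 of which had 112 intervals. Of these, 14 were lower (12.5%) and 9 higher (8.04%), shares close to the 15.5% and 7.27% of all intervals, and the median was 0.07. At TRIM28, the scaffold, the single interval of over 30 kb had 805 and 867 CPM in shIRF4, against 890 and 875 CPM in control (-0.08, edgeR adjusted p = 0.19). At the SETDB1 promoter there were 30.5 and 26.7 CPM in shIRF4, against 27.8 and 26.3 CPM in control (0.10, adjusted p = 0.46). Of the 26 promoter intervals of the list, 0 were lower and 1 was higher, that of CHD3 (0.30, adjusted p = 0.015), a chromatin remodeller of the NuRD complex.

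The falls of the list lay outside promoters, in 4 genes. EHMT1, a histone H3 lysine methyltransferase, had 8 lower intervals, and its far end had 18.6 and 22.9 CPM in shIRF4, against 45.6 and 46.1 CPM in control (-1.17). ATF7IP, a stabilising partner of SETDB1, had 3 lower intervals and 1 higher one (0.83) outside the gene. The strongest fall, 84.5 kb from the gene end, had 2.28 and 1.09 CPM in shIRF4, against 9.56 and 9.23 CPM in control (-2.32). The libraries of the groups did not overlap at this interval or at the EHMT1 far end. DNMT1, the maintenance DNA methyltransferase, had 2 lower body intervals (-1.04 and -1.17), and PPHLN1 of the HUSH complex had 1 lower and 1 higher. Body intervals of DNMT3A (0.49) and DNMT3B (0.88), the de novo DNA methyltransferases, and an interval 28.6 kb from TRIM24 (0.85) were higher. Single higher intervals were also called at CHD4 (0.56), MPHOSPH8 (0.69) and UHRF1 (0.62).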

How the data were processed

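Raw read counts per interval were deposited by the authors, made with featureCounts 2.0.0 per the file headers, on build hg38 per the submitters' processing notes. The headers show reads reduced to their 5′ ends, duplicates ignored and fractional counting of multi-mapping reads requested, yet 0 of the deposited counts were non-integer. The aligner and peak caller are not given in the sources used here. Gene positions and promoter windows came from RefSeq tables of GRCh38.p14.

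edgeR 4.0.16 (R 4.3.3) compared the groups over all 4 libraries with no further term: filterByExpr (73028 intervals kept, 107 removed), TMM factors (0.981 to 1.03), quasi-likelihood F-test, Benjamini-Hochberg adjustment over all intervals, threshold 0.05. "Rose", "fell", "higher" and "lower" mean past that threshold. CPM values use the TMM factors, and SE belongs to the log2 fold change. Contrasts within a gene used limma 3.58.1 on log2(CPM + 1) with a mean of at least 1 CPM in both parts. DESeq2 1.42.0, other scalings, filters, windows, left-out libraries and a replicate block were alternatives. The scripts were tested on simulated data.

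Named genes followed a rule: the 10 largest falls and rises of at least median abundance with no overlap between groups, 1 per gene, the gene with the most calls in each cluster (ties by p), the highest gene end in each cluster, the 5 strongest gene ends in each direction, the strongest contrasts and genes called both ways. Other names were added after their values were seen, and are the genes at the promoter contrasts, the lower promoters, ZNF845, ZNF473, further pathway genes and the stretch in cluster 6. Members and lists were chosen with earlier results of these data known. Replicates of a group did not have identical counts (chi-square per degree of freedom 2.01 in shIRF4 and 1.04 in control, both with small p over very many intervals). The control value lies near 1, the level of counting noise alone, so it does not show that the control libraries came from separate cultures. The protein features planned for the list were not analysed here. 1 B-cell marker gene is not reported here.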

Additional observations from a re-analysis of the deposited data

How the results depend on the processing

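All 290 lower and 9 higher ZNF intervals kept their direction in the 12 alternative fits, which reuse the libraries in which they were called. The number of calls depended on library, tool and scaling. The counts below show that dependence only, since shares over all intervals or genes are given just where stated above. Leaving out 1 library at a time gave 38 (without shIRF4 replicate 1) to 411 (without shIRF4 replicate 2) lower intervals and 4 to 13 higher, with 10 to 80 lower and 2 to 9 higher at gene ends, 14 to 218 lower and 1 to 3 higher in bodies, and 14 to 113 lower and 1 to 3 higher outside. Summed genes gave 34 to 104 lower and 3 to 9 higher, gene end minus body 0 to 12 calls and promoter minus rest 0 to 20. The cause was not tested. DESeq2 gave 15 lower and 1 higher (gene end 6 and 0, body 6 and 1, outside 3 and 0, summed genes 14 and 0), with 156 lower and 3 higher at an unadjusted p under 0.05. Against a 1.5-fold change 1 interval, in a body, was lower and 0 higher (0 and 0 at gene ends and outside, 0 and 0 summed genes; 24 lower and 1 higher unadjusted).

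Scaling on the other chromosome 19 intervals, which moved the median of all intervals by 0.13, gave 139 lower and 32 higher (gene end 30 and 21 with the median turned to 0.027, body 69 and 6, outside 40 and 5, 14 summed genes higher). Library totals gave 26 higher (gene end 17, body 5, outside 4, summed genes 18), and DESeq2 size factors 2 higher outside. Signs turned at gene ends with no call: on the chromosome 19 scaling ZNF554 (0.064), ZNF101 (0.050), ZNF581 (0.098) and ZNF324 (0.020), and on library totals ZNF581 (0.036). With 1 library left out, ZNF554 lay between -0.10 and 0.019, ZNF566 between -0.030 and 0.070 and ZNF581 between -0.061 and 0.051. Nearest-end assignment gave 2 higher outside, a 2 kb gene-end window a median of -0.23 and 0 higher in bodies, and pseudocount 2 gave 17 calls for gene end minus body.

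Same-numbered libraries did not deviate together (correlation -0.03 over all intervals and -0.10 over ZNF intervals), so the numbers are not taken to pair them. With the replicate block, 277 of the 290 lower and all 9 higher intervals stayed called, with 2 higher in bodies, 2 outside, and 3 calls for gene end minus body and 9 for promoter minus rest.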

Other observations

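Genes with many intervals, chosen here after their values were seen, did not all fall alike. ZNF264 in cluster 10 had 17 intervals, 5 of them lower, and fell by 0.22 on the log2 scale on summed counts (edgeR adjusted p = 0.015). ZNF587B had 8 lower among 9 intervals, and fell by 0.39 on summed counts (adjusted p = 0.00024). ZNF460 in the same cluster had 3 lower among 11, and its summed log2 fold change was -0.06 (adjusted p = 0.50). The scattered gene ZNF536, a zinc finger gene of neural tissue, had 11 intervals and no call, with a summed log2 fold change of 0.05 (adjusted p = 0.56).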
